A study of Mus musculus with 10 samples.

Results

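The growth hormone and insulin-like growth factor (GH/IGF) axis of the liver was followed in 10 genes: *Ghr*, *Socs2*, *Igf1*, *Igfals*, *Igfbp1*, *Igfbp2*, *Igfbp3*, *Igfbp4*, *Igfbp5* and *Igfbp7*. They were chosen by symbol for their place in this axis, with earlier results of these data known. All 10 were measured among the 22180 genes of the array. Liver RNA came from 10 mice with 1 Affymetrix Mouse Gene 2.0 array each. The 4 control mice were Vps33bfl/fl, that is Cre-negative littermates with the floxed *Vps33b* allele on both chromosomes, which the sample labels call wild type (males 1 and 2, females 3 and 4). The 6 knockout mice were Vps33bfl/fl-AlfpCre, in which Cre deletes *Vps33b* in hepatocytes and cholangiocytes and leaves it in the other cells of the liver (males 1, 2 and 3, females 4, 5 and 6). Both genotypes were given cholic acid (CA), a bile acid, at 0.5% of their chow. According to the labels they were 10 weeks old at the start and were fed for 2 weeks. The general methods of the study give a longer schedule, whereas the age range it states for the array mice takes in the labels' schedule. Mice on normal chow were not analysed here, so every value is one under CA feeding. Values are log2 signals of a gene's probe set, on which a difference of 1 is a doubling. They compare mice and not genes, since probe sets differ in brightness for reasons of their own.

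GH from the pituitary binds its receptor on hepatocytes, which activates the kinase JAK2 and the transcription factor STAT5B. STAT5B in turn drives *Igf1*, *Igfals* and *Socs2*, and the liver is the main source of circulating IGF1. Most IGF1 in blood travels in a ternary complex with IGFBP3 and the acid-labile subunit encoded by *Igfals*. The other binding proteins hold IGFs in smaller complexes. IGFBP1 is made by hepatocytes and is known for its fast induction by fasting, low insulin, amino acid shortage and cell stress, and GH also sets the sex difference of many liver genes in the mouse through the pattern of its pulses.

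The 3 promoter stretches below belong to the genes on which the results turn or whose control by GH is best known. Each is the 250 bases before an annotated start, from RefSeq on GRCm38.p6, written 5′ to 3′ on the gene's strand. In *Igfbp1* (chr11:7197537-7197786, plus strand) capitals mark CAAAACAA and the 10 bases after it, the stretch known from the rat and human gene as its insulin response element. In *Igfbp7* (chr5:77408046-77408295, minus strand) they mark GGGCGG, the box of the factor SP1, on either strand. In *Igfals* (chr17:24877981-24878230, plus strand, the second of its 3 annotated starts) they mark TTCNNNGAA, the palindrome of STAT factors, GTAAACA of the forkhead factors, read on the other strand, and GGGCGG.
Igfbp1: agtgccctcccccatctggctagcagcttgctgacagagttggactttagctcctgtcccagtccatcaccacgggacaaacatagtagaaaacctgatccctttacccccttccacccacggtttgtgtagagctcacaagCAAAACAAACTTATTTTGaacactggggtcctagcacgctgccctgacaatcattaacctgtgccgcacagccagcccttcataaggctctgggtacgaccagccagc
Igfbp7: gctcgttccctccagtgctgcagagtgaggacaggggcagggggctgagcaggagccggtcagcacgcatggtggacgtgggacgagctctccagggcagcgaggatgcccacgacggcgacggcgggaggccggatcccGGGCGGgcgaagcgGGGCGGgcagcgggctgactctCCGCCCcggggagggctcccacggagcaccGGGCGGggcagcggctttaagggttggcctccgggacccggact
Igfals: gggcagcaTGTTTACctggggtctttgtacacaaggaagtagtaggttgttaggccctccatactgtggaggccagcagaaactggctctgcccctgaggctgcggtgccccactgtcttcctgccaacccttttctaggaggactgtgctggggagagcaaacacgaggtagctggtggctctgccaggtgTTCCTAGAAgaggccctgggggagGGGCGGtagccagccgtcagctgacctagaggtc

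Promoters were in the table for 9 of the 10 genes, with 13 starts in all, and *Socs2* was not matched. Windows from 250 bases before to 50 bases after the start were searched on both strands. CAAAACAA was in 2.51% of all 32851 promoters and in 1 of the 13, that of *Igfbp1*, where it began 108 bases before the start. The whole capital stretch, CAAAACAAACTTATTTTG, which was read from *Igfbp1*, was in 1 promoter of all (0.00304%), its own. TTCNNNGAA was in 8.3% of all promoters and in 2 of the 13, both of *Igfals*, at 236 and 58 bases before their starts. GTAAACA was in 3.65% of all promoters and in 1 of the 13, the *Igfals* stretch shown. GGGCGG was in 35.7% of all promoters and in 5 of the 13, with 4 copies before *Igfbp7*. These are matches of letters and say nothing of which factor was bound.

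The arrays were alike as a whole. Correlations between pairs ran from 0.982 to 0.991, array medians from 4.71 to 4.82, and no 2 arrays were identical. The 3 Y-linked genes followed the sex label in 10 of 10 mice and read at most 4.51 in female livers, which gives the level of these genes where they are absent. The lowest value of any member was 5.83, so all 10 genes read above the level of these absent genes in all 10 livers. Since probe sets differ in brightness, this does not by itself show that each member was expressed. *Vps33b* itself differed by 0.08 between genotypes (adjusted p = 0.739 from limma), but which exons its probe set reads is not stated, so the value does not check the labels. Hepatocyte markers were at 12.04 to 12.16 (mean of 14 genes) in control and 11.98 to 12.13 in knockout livers, and 0 of 14 passed the test (1 lower at an unadjusted p under 0.05). Of these, *Tat*, an enzyme of tyrosine breakdown, differed by -0.25 (adjusted p = 0.127, and 0.0469 with an intensity trend) and *Ttr*, a carrier of thyroid hormone, by -0.10 (adjusted p = 0.499 from limma). Control 1 stood apart in *Igfbp1* and in genes of amino acid and endoplasmic reticulum (ER) stress, and results that rest on this liver are given with and without it. In bulk tissue, fewer cells of a type and less RNA per cell cannot be told apart.

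The comparison of knockout with control livers asked how the axis stood after loss of *Vps33b*. It was an uneven picture, in which most genes of the axis did not pass the test, some with wide intervals, *Igfbp7* rose slightly, *Ghr* was lower without passing the test, and *Igfbp1* varied over a 13.0-fold range with high values in most knockout livers. By limma with sex as a term and adjustment over all genes, 1 of the 10 was higher in knockout liver, 0 were lower and 9 did not pass the threshold of 0.05. Over all genes, 3.11% were called higher and 1.14% lower, and 1 call in a list of 10 is close to that background. At an unadjusted p under 0.05, 2 members were higher (*Igfbp1* and *Igfbp7*) and 1 was lower (*Ghr*), against 9.65% and 7.67% of all genes. The differences were positive for 5 and negative for 5 (48.1% of all genes positive), with a median of -0.02 against -0.01 over all genes.

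**Figure D1:**
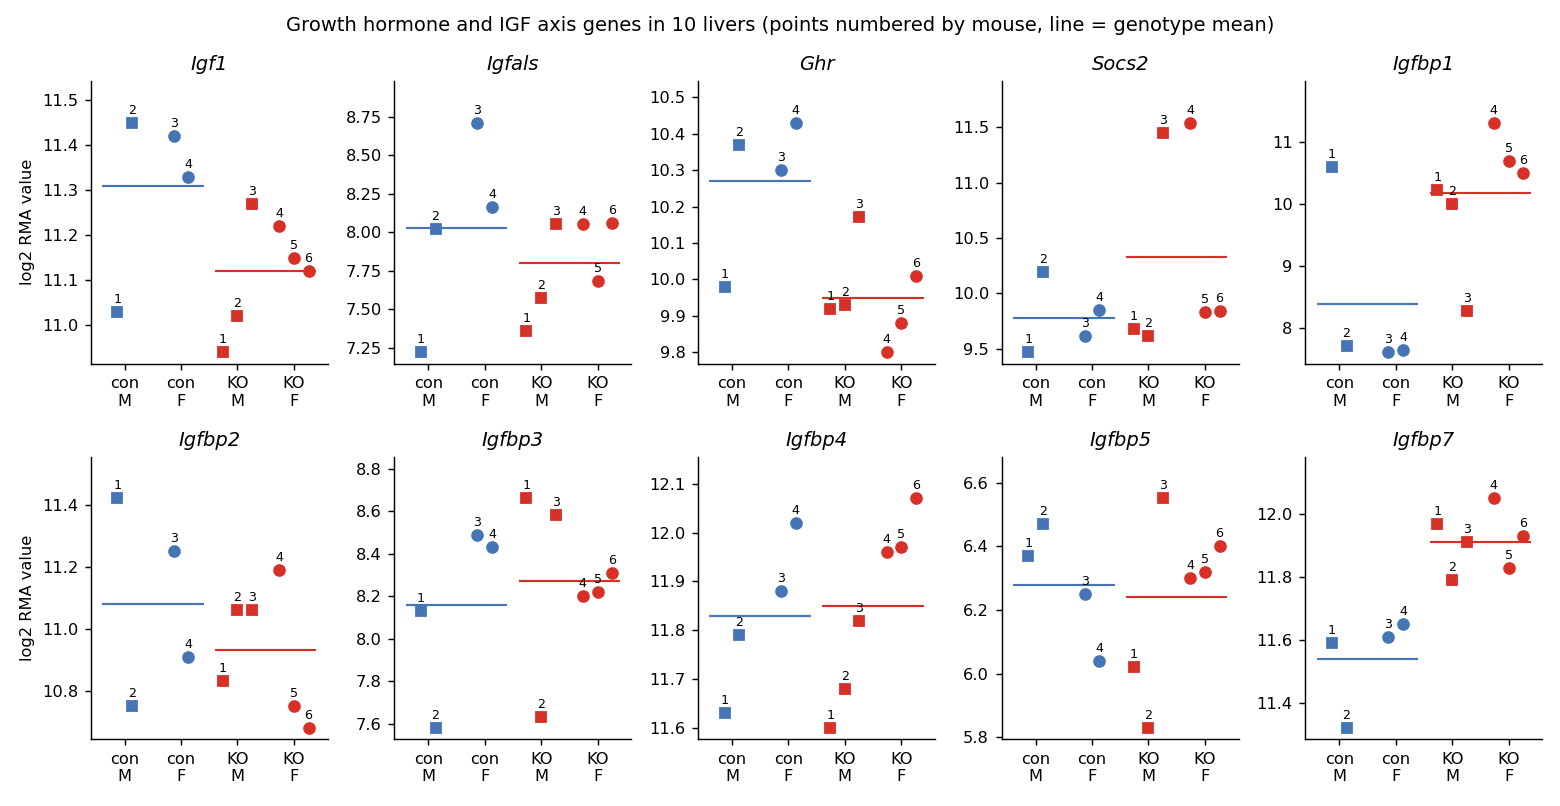
Log2 RMA value of each of the 10 genes (one panel each, with its own vertical axis that does not start at 0) in control (con, blue) and knockout (KO, red) livers of males (M, squares) and females (F, circles). Each point is 1 mouse with its number and the line is the mean of the genotype. Only for *Igfbp7* did all 6 knockout livers lie above all 4 controls, while for *Igfbp1* control 1 at 10.60 lay among the knockout livers and knockout 3 at 8.27 near the other controls.

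*Ghr* encodes the GH receptor, the entry point of the axis. Its log2 value was 9.98, 10.37, 10.30 and 10.43 in control livers 1 to 4. It was 9.92, 9.93, 10.17, 9.80, 9.88 and 10.01 in knockout livers 1 to 6. Control 1 was as low as the knockout livers and lay below knockouts 3 and 6, so the groups overlapped, while the other 3 controls were above every knockout. The difference was -0.32 ± 0.11 (SE, 95% interval -0.55 to -0.09), or 0.803-fold, which did not pass after adjustment (unadjusted p = 0.0113, adjusted p = 0.131 from limma). Without control 1 it was -0.42 with an adjusted p of 0.0252, and the adjusted p ran from 0.0252 to 0.341 over all alternatives. In males the difference was -0.17 ± 0.14 (SE) and in females -0.47 ± 0.14 (adjusted p = 0.727 and 0.152 from limma).

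*Socs2* encodes a feedback inhibitor of the GH receptor whose transcription follows STAT5B. Its value was 9.47, 10.19, 9.62 and 9.85 in control livers 1 to 4. In knockout livers 1 to 6 it was 9.68, 9.62, 11.45, 11.54, 9.83 and 9.84. Knockouts 3 (a male) and 4 (a female) stood far above all other livers of either genotype, and the remaining 4 knockouts lay within the range of the controls. A second probe set of *Socs2* read lower, at 5.25 to 5.59 in control livers, and was again highest in knockout 3 (6.09) and knockout 4 (6.37), against 5.31 to 5.51 in the other knockouts. The mean difference of 0.54 ± 0.40 (SE, 95% interval -0.34 to 1.42) did not pass (adjusted p = 0.557 from limma). It was 0.28 without knockout 3 and 0.27 without knockout 4. The spread of *Socs2* over the 10 livers was 2.07, or 4.19-fold, second among the members to that of *Igfbp1*.

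*Igf1*, the hormone itself, was at 11.03, 11.45, 11.42 and 11.33 in control livers 1 to 4. It was at 10.94, 11.02, 11.27, 11.22, 11.15 and 11.12 in knockout livers 1 to 6. As with *Ghr*, 3 of the controls were above every knockout and control 1 fell among them. The difference of -0.19 ± 0.10 (SE, 95% interval -0.40 to 0.03), or 0.878-fold, did not pass (adjusted p = 0.362 from limma), and a fall of up to 0.40 lies within the interval. It ran from -0.27 (without control 1) to -0.11 (without control 2) with 1 liver left out.

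*Igfals*, the acid-labile subunit, was at 7.22, 8.02, 8.71 and 8.16 in control livers 1 to 4 and at 7.36, 7.57, 8.05, 8.05, 7.68 and 8.06 in knockout livers 1 to 6. The controls alone spanned more than all knockouts together, with male control 1 the lowest and female control 3 the highest liver of all. The genotype difference was -0.23 ± 0.20 (SE, 95% interval -0.67 to 0.20, adjusted p = 0.621 from limma). It was -0.45 without control 1 and -0.06 without control 3, and passed in neither case. Female controls were above male controls by 0.82 ± 0.29 (SE), which did not pass with 2 livers of each sex (adjusted p = 0.356 from limma). Control 1 set the male mean low, and male control 2 (8.02) lay near female control 4 (8.16).

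*Igfbp1* encodes the stress- and insulin-responsive binding protein of hepatocytes. Its value was 10.60, 7.71, 7.61 and 7.64 in control livers 1 to 4, so that controls 2 to 4 lay within a narrow band (7.65 ± 0.05, SD, n = 3) and control 1 far above it. In knockout livers 1 to 6 it was 10.23, 10.00, 8.27, 11.31, 10.69 and 10.50. Of the knockouts, only the male number 3 came near the low controls, and knockouts 4 and 5, both female, exceeded control 1. The means were 8.39 ± 1.48 (SD, n = 4) and 10.17 ± 1.03 (SD, n = 6). The difference of 1.78 ± 0.65 (SE, 95% interval 0.35 to 3.21) was 3.43-fold, and it did not pass after adjustment (unadjusted p = 0.0192, adjusted p = 0.172 from limma). It turned on control 1: without that liver the difference was 2.66 with an adjusted p of 0.00613, and over all alternatives the adjusted p ran from 0.00613 to 0.408. By its SD over the 10 livers *Igfbp1* ranked 33 of the 22180 genes. *Igfbp1* is in the study's heat map of genes that contributed most to the separation of these same arrays by genotype, so its difference is not independent evidence.

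The sexes gave different pictures of *Igfbp1*. Both female controls were low (7.61 and 7.64) and all 3 female knockouts high (10.50 to 11.31), a difference of 3.21 ± 0.74 (SE) or 9.25-fold. In males each genotype held high and low livers, and the difference was 0.34 ± 0.74 (SE) or 1.27-fold. Neither passed within its sex (adjusted p = 0.0706 in females and 0.913 in males from limma), and in males the sign depended on the mouse left out, with a range from -1.10 to 1.79. In females the adjusted p over the alternatives ran from 0.0185 to 0.283. The difference between the sexes was 2.87 ± 1.04 (SE, 95% interval 0.56 to 5.17), which was not called after adjustment over all genes (unadjusted p = 0.0195, adjusted p = 0.77 from limma). Without control 1 it was 1.42.

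Genes of amino acid and ER stress moved with *Igfbp1* in control 1. The mean of the 11 measured genes of this list was 7.77 in control 1, the highest of all 10 livers, against 5.84 to 6.15 in the other controls and 6.18 to 7.06 in the knockouts. *Atf3*, a stress-induced transcription factor also in that heat map, was at 9.57 in control 1 and at 6.69, 7.45 and 7.08 in controls 2 to 4. *Slc7a11*, the cystine transporter, was at 8.55 in control 1 and at 3.45 to 3.78 in controls 2 to 4. These low values lie at the level of absent Y-linked genes in females (up to 4.51), where a fold can be understated. Knockout 3, low in *Igfbp1*, also had the lowest list mean (6.18) among the knockouts. None of the 11 genes passed the genotype test with all livers, and 1 was higher at an unadjusted p under 0.05 (*Atf3* 1.50, adjusted p = 0.168, and *Slc7a11* 0.85, adjusted p = 0.687, from limma), whereas without control 1 there were 4 higher, with *Atf3* at 2.29 and an adjusted p of 0.0032. The part of this stress pattern in the *Igfbp1* values was not tested. The 12 measured targets of insulin and FOXO1, a list that shares with *Igfbp1* its fall under insulin, had a median difference of 0.00, and 0 passed by limma (without adjustment 1 was higher and 2 were lower). Among them *Irs2*, an adaptor of the insulin receptor, differed by 0.44 (adjusted p = 0.326) and *Pdk4*, a kinase that spares glucose, by 0.41 (adjusted p = 0.499 from limma).

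**Figure D2:**
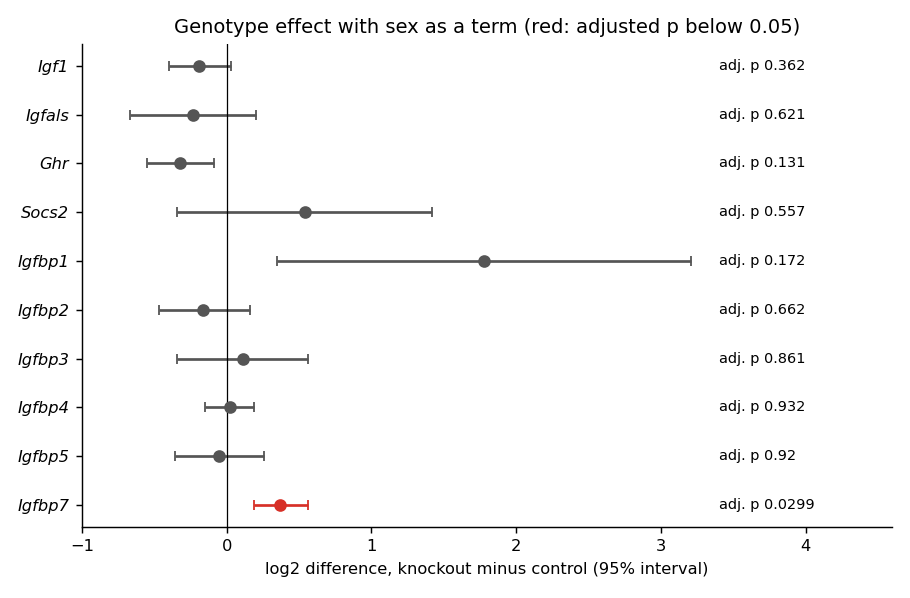
Difference in log2 value, knockout minus control, of the 10 genes (points, with 95% intervals as bars) from limma with sex as a term, with the adjusted p at the right. The interval of *Igfbp7* (0.19 to 0.56) is narrow and above 0, and that of *Igfbp1* (0.35 to 3.21) is the widest.

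*Igfbp2*, *Igfbp3*, *Igfbp4* and *Igfbp5* encode further high-affinity IGF binding proteins, of which IGFBP3 forms the ternary complex and in liver comes mainly from non-parenchymal cells. *Igfbp2* ran from 10.75 to 11.42 in control livers and from 10.68 to 11.19 in knockout livers, a difference of -0.16 (95% interval -0.47 to 0.16, adjusted p = 0.662 from limma), or -0.04 without control 1. *Igfbp3* ran from 7.58 to 8.49 and from 7.63 to 8.66, a difference of 0.11 (95% interval -0.34 to 0.56, adjusted p = 0.861 from limma). The lowest *Igfbp3* values were those of control 2 and knockout 2, and the groups overlapped almost fully. *Igfbp4* ran from 11.63 to 12.02 and from 11.60 to 12.07, a difference of 0.02 (95% interval -0.15 to 0.19, adjusted p = 0.932 from limma). *Igfbp5* ran from 6.04 to 6.47 and from 5.83 to 6.55, a difference of -0.05 (95% interval -0.36 to 0.26, adjusted p = 0.92 from limma). For *Igfbp4* the interval leaves room for no more than 0.19 either way, and it holds the tightest bound of the axis. *Igfbp1* and *Igfbp3* are neighbours on chromosome 11, and *Igfbp2* and *Igfbp5* on chromosome 1, with 0 RefSeq gene starts between the genes of either pair. Within the first pair the differences were 1.78 and 0.11.

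*Igfbp7* encodes a matrix-associated relative of the IGF binding proteins with low affinity for IGFs, made in liver chiefly by endothelial and mesenchymal cells. It was at 11.59, 11.32, 11.61 and 11.65 in control livers 1 to 4. In knockout livers 1 to 6 it was at 11.97, 11.79, 11.91, 12.05, 11.83 and 11.93. Every knockout liver was above every control, in males as in females, as for 3.39% of all genes. The rise was 0.37 ± 0.08 (SE, 95% interval 0.19 to 0.56) or 1.29-fold, and passed (adjusted p = 0.0299 from limma). The call was close to the threshold: the adjusted p was 0.115, 0.0737 and 0.0783 without controls 2, 3 and 4 and 0.0619, 0.0503, 0.0507 and 0.0768 without knockouts 1, 2, 3 and 4, while the difference stayed at 0.30 to 0.41 over all mice left out.

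Markers of several non-hepatocyte cell types were higher in the same knockout livers. Over all genes 3.11% were called higher by limma, and the counts below are to be read against that share. Bile duct markers rose in 6 of 9 (mean 6.18 to 6.47 in control and 6.80 to 7.44 in knockout livers), among them *Anxa13* (0.87, adjusted p = 0.000874) and the adhesion molecule *Epcam* (1.14, adjusted p = 0.000996 from limma). Of the macrophage markers 5 of 14 rose (8.11 to 8.67 and 8.75 to 9.26), among them the receptor *Trem2* (1.11, adjusted p = 0.0137) and the complement gene *C1qa* (0.57, adjusted p = 0.0181 from limma). Activated fibroblast and matrix genes rose in 4 of 15 (6.52 to 6.85 and 6.88 to 7.47), among them the collagen cross-linking enzyme *Loxl1* (0.91, adjusted p = 0.00464) and the protease inhibitor *Timp1* (5.05 to 5.44 in control and 5.78 to 6.94 in knockout livers, adjusted p = 0.00794 from limma). In these 3 lists the mean of every knockout liver was above that of every control, as for *Igfbp7*. Of the sinusoidal endothelial markers 1 of 15 passed, *Cdh5*, the cadherin of endothelial junctions (0.34, adjusted p = 0.0373 from limma). *Lyve1*, a hyaluronan receptor, was at 0.52 without passing (adjusted p = 0.0604 from limma). The endothelial list means overlapped (8.73 to 9.29 in control and 9.03 to 9.28 in knockout livers). Of the quiescent stellate cell markers 1 of 13 passed, the PDGF receptor *Pdgfrb* (0.71, adjusted p = 0.0357 from limma). The stellate list means overlapped (7.91 to 8.19 and 8.02 to 8.19), and *Colec10* was at -0.65 (adjusted p = 0.0509 from limma). In the endothelial and stellate lists, 1 call is close to the share of all genes. Lymphocyte markers passed in 0 of 10 by limma, also at an unadjusted p under 0.05, with *Cd3g* at 0.30 (adjusted p = 0.335) and *Gzma* at 0.20 (adjusted p = 0.399 from limma). *Gzma* read at the level of absent Y-linked genes in every liver (3.03 to 3.86), so its difference says little. The part of these cell types in the rise of *Igfbp7* was not tested. These counts leaned on single livers. Without control 2 macrophage markers passed in 0 of 14, matrix genes in 2 of 15 and bile duct markers in 4 of 9, and without control 1 in 7, 8 and 6. *Cdh5* and *Pdgfrb* each kept the call in only 2 of the 10 fits with 1 liver left out, with adjusted p up to 0.14 and 0.131.

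**Figure D3:**
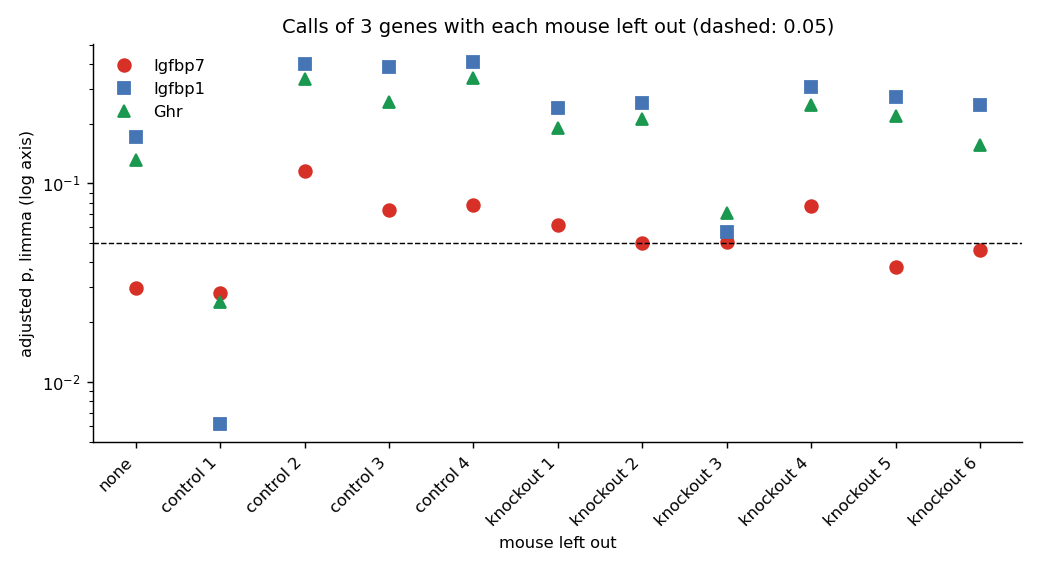
Adjusted p from limma (vertical log axis) for *Igfbp7*, *Igfbp1* and *Ghr* with all 10 mice and with each mouse left out, with a dashed line at 0.05. *Igfbp1* (0.00613) and *Ghr* (0.0252) fell below the line when control 1 was left out, and *Igfbp7* ranged from 0.028 to 0.115.

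Within each sex the genotype effect rested on 2 control and 3 knockout livers, and 0 members were called in males or in females, against 0.266% of all genes called positive and 0.0812% negative in males, and 0.699% and 0.207% in females. At an unadjusted p under 0.05, *Igfbp7* was higher in males, and *Igfbp1* and *Igfbp7* were higher and *Ghr* lower in females. The share of all genes at this unadjusted cutoff was not counted within a sex, so these names cannot be set against a background. *Igfbp7* differed by 0.44 ± 0.12 (SE) in males and 0.31 ± 0.12 (SE) in females, and *Igf1* by -0.16 ± 0.14 and -0.22 ± 0.14 (SE). The sign differed between the sexes for *Igfals* (0.04 in males and -0.51 in females), *Igfbp3* (0.44 and -0.22), *Igfbp4* (-0.01 and 0.05) and *Igfbp5* (-0.29 and 0.19). None of these differences between sexes passed, and 0 members were called for the difference, against 0% of all genes positive and 0.00451% negative. At an unadjusted p under 0.05 it was 1 member, *Igfbp1*, against 6.14% of all genes. Females and males of 1 genotype also differed in 0 members, in control livers (0.122% of all genes called higher and 0.0541% lower in females) as in knockout livers (0.113% and 0.0721%). Without adjustment 1 member was higher in females in each case, *Igfals* in controls and *Igfbp4* in knockouts. Here too the unadjusted share of all genes was not counted, so these are not read as a result. For *Igfbp1* the sex difference was -1.53 ± 0.81 (SE) in controls and 1.33 ± 0.66 (SE) in knockouts (adjusted p = 0.524 and 0.698 from limma). The first rested on control 1, since male control 2 (7.71) was close to both female controls (7.61 and 7.64).

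**Figure D4:**
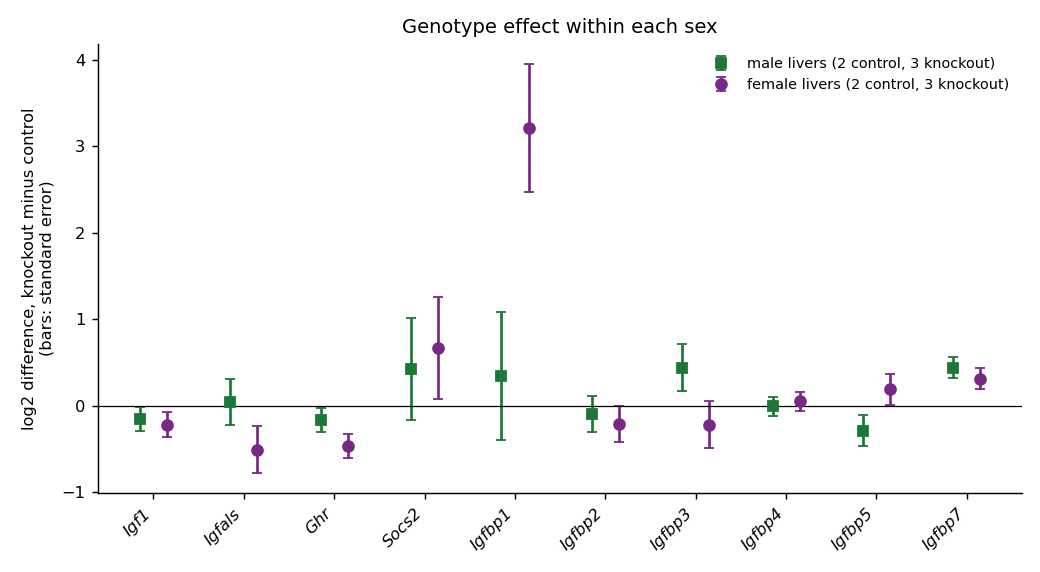
Difference in log2 value, knockout minus control, of the 10 genes in male (green squares) and female (purple circles) livers from limma on 4 groups, with bars of 1 standard error. For *Igfbp1* the female value (3.21) lies far above the male value (0.34), and for *Igfbp7* both are positive (0.44 in males and 0.31 in females).

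The relay from the GH receptor was represented by 20 measured genes of 22 listed, of which 1 was higher and 0 were lower by limma (median -0.02, with 3 and 2 at an unadjusted p under 0.05). Over all genes 3.11% were higher and 1.14% lower, and 9.65% and 7.67% without adjustment, so 1 call in 20 is close to the background. The exception was *Sirpa*, a membrane receptor that binds SHP phosphatases, is abundant on myeloid cells and is phosphorylated after GH treatment. It was at 8.66, 8.02, 8.35 and 8.13 in control livers 1 to 4. In knockout livers 1 to 6 it was at 9.38, 9.65, 9.50, 9.35, 9.16 and 9.18. All knockouts were above all controls, and the rise of 1.08 ± 0.12 (SE, adjusted p = 0.00144 from limma) passed under every alternative run, with adjusted p from 0.000671 to 0.0433. The macrophage markers above rose in the same livers, and their part in the rise of *Sirpa* was not tested. *Cish*, a further feedback inhibitor under STAT5B named here after its values were seen, was at 5.92, 6.94, 6.71 and 6.15 in control livers and at 5.52, 6.31, 6.47, 7.21, 6.80 and 6.98 in knockout livers 1 to 6. It was not high in knockout 3, in which *Socs2* was, and was highest in knockout 4 (genotype difference 0.12, adjusted p = 0.879 from limma).

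Of the IGF ligands, receptors, proteases and related genes, 14 of 16 were measured and 0 passed in either direction. Their median was 0.18, and 4 were higher at an unadjusted p under 0.05 (9.65% of all genes). *Igf1r*, the receptor of IGF1, which hepatocytes carry at low level, was at 5.35 to 5.83 in control and 5.80 to 6.46 in knockout livers (0.41 ± 0.11, SE, adjusted p = 0.0618 from limma). *Pappa*, a protease that cuts IGFBP4, was at 4.81 to 4.89 in control and 4.98 to 5.28 in knockout livers, without overlap (0.28 ± 0.07, SE, adjusted p = 0.0509 from limma). The values of *Pappa* lie near the level that absent Y-linked genes reach, where a fold can be understated.

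Genes that the GH pattern sets apart between the sexes had the known order of the sexes in control livers, and in the list medians of knockout livers. These lists were chosen with earlier results of these data known, so the order is a description. In both lists most genes had lower values in knockout livers (only 3 of 21 female-biased and 4 of 20 male-biased genes had a positive difference). All 20 measured male-biased genes were lower in female than in male controls (median -1.40, and -1.50 in knockouts), and all 21 measured female-biased genes were higher (median 1.59, and 1.57 in knockouts). Of the female-biased genes 3 fell and 1 rose in knockout livers, with a median of -1.02 (-0.39 in males and -0.79 in females), and 15 were lower at an unadjusted p under 0.05. Over all genes 1.14% were called lower and 3.11% higher, and 7.67% were lower without adjustment. Those that fell were *Acot3*, an acyl-CoA thioesterase (-0.87, adjusted p = 0.0137), *Cyp17a1*, a steroid hydroxylase (-1.58, adjusted p = 0.0219), and *Cyp4a14*, a fatty acid hydroxylase under PPARα (-2.45, adjusted p = 0.0239 from limma). *Cyp4a14* was at 12.77 to 12.99 in all 4 controls, where females were above males by only 0.02, at 8.08, 8.80 and 9.70 in male knockouts and at 11.98, 12.31 and 11.73 in female knockouts. The gene that rose was *Cd36*, the fatty acid translocase (0.67, adjusted p = 0.0161 from limma). Of the male-biased genes *Cyp4a12b*, a fatty acid hydroxylase, fell (-0.81, adjusted p = 0.0219) and *C6*, a complement component, rose (0.81, adjusted p = 0.0411 from limma). The median of this list was -0.38, with 4 lower and 3 higher at an unadjusted p under 0.05 (7.67% and 9.65% of all genes). With 20 genes, 1 call each way is not far from the share of all genes. Without control 2 each of these 6 genes failed the test (adjusted p = 0.0627 for *Acot3*, 0.0891 for *Cyp17a1*, 0.097 for *Cyp4a14*, 0.0699 for *Cd36*, 0.0891 for *Cyp4a12b* and 0.0972 for *C6*), and the count of female-biased genes that fell ran from 0 to 9 over all alternatives, with 7 without control 1 and 0 without control 2. The study's heat map of these arrays holds *Cyp4a14* and other genes of the female-biased list, so the values of these genes are not independent evidence.

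**Figure D5:**
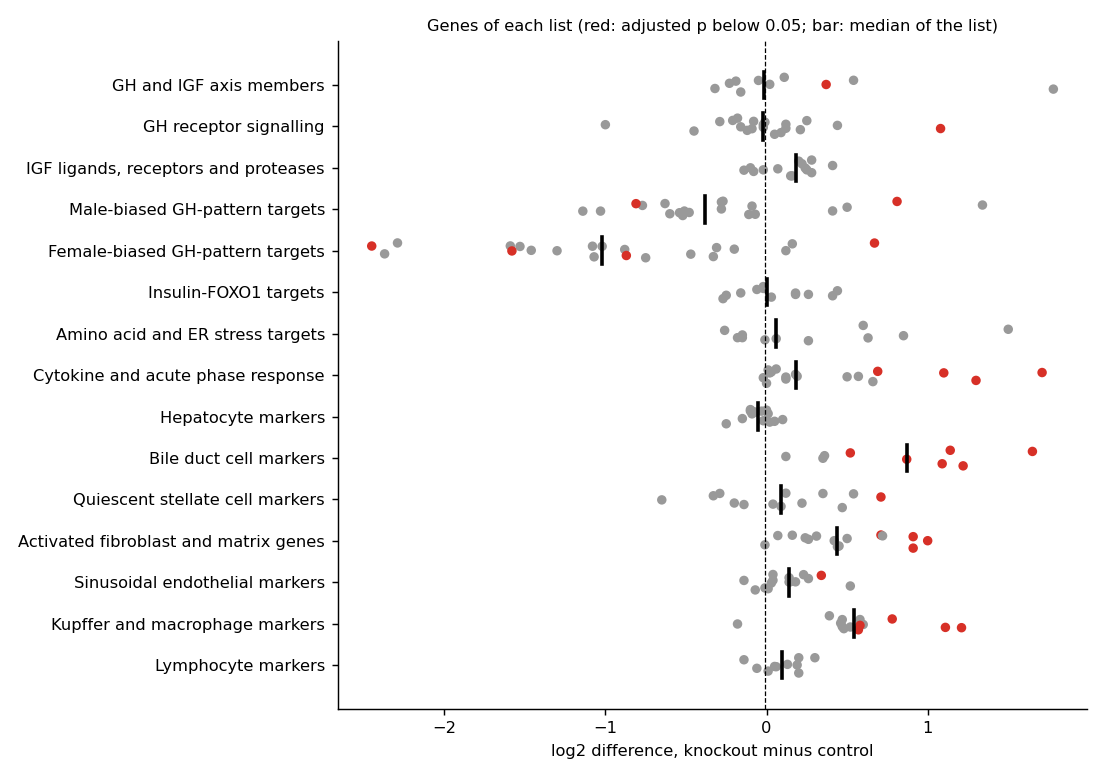
Difference in log2 value, knockout minus control, of the measured genes of the 10 axis genes and of each list (1 point per gene, red where the adjusted p from limma is below 0.05), with a black bar at the median of the list and a dashed line at the median of all genes. The axis genes are centred at -0.02, whereas the medians of the female-biased genes (-1.02) and of the bile duct markers (0.87) lie to either side.

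Inflammatory cytokines are known to blunt GH signalling in liver and to induce the acute phase proteins. Of the cytokine and acute phase genes 4 of 17 rose and 0 fell (median 0.18, against 3.11% and 1.14% of all genes called). They were *Lcn2*, an iron-scavenging acute phase protein (1.10, adjusted p = 0.00388), the cytokine *Il1b* (1.30, adjusted p = 0.00622), and the orosomucoid genes *Orm3* (1.71, adjusted p = 0.0114) and *Orm2* (0.69, adjusted p = 0.0226 from limma). *Orm2* and *Orm3* are close copies, between which the array's probes may not tell apart fully, and *Orm3* is in the study's heat map of these arrays. Without control 2 the count was 2, since *Orm2* and *Orm3* were lost (adjusted p = 0.0945 and 0.0537).

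Patterns most like those of the axis genes were found by Pearson correlation over the 10 mice, in which genotype, sex and array are shared, and they are given as a description. Each is a highest r picked from all genes over only 10 mice, where high values can arise by selection alone. The pattern of *Igfbp7* was nearest to that of *Timp2*, an inhibitor of matrix metalloproteinases (r = 0.98), and of the transcription cofactor *Lbh* (r = 0.96), which were themselves higher in knockout liver by 0.66 (adjusted p = 0.0161) and 0.46 (adjusted p = 0.0283 from limma). *Igfbp3* was nearest to the endothelial genes *Mmrn2* (r = 0.97) and *Ldb2* (r = 0.95). *Ghr* was nearest to *Haao*, an enzyme of tryptophan breakdown (r = 0.98), and *Gm4755* (r = 0.98), *Igf1* to *Magee1* and *P2ry4* (both r = 0.94), and *Igfals* to *Sh2b1* (r = 0.96), an adaptor of JAK2, and *Ly6g2* (r = 0.95). The nearest genes of *Igfbp1* were *Defa26* (r = 0.98) and *Arhgap9* (r = 0.97), those of *Socs2* were *Gm8909* (r = 0.91) and *Caskin1* (r = 0.90), and those of *Igfbp2* were *A2m* (r = 0.92) and *Sult6b1* (r = 0.91). For *Igfbp4* they were *Rtl3* (r = 0.95) and *Olfr128* (r = 0.94), and for *Igfbp5* *4930546C10Rik* (r = 0.94) and *Gm4971* (r = 0.93).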

How the data were processed

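Liver RNA of 10 mice (4 Vps33bfl/fl and 6 Vps33bfl/fl-AlfpCre) was measured on Affymetrix Mouse Gene 2.0 arrays. The deposited values are log2 signals per probe set that the authors made with RMA in the oligo package (versions not given in the sources used here). RMA subtracts background, equalises the distributions of the arrays and summarises the probes of a set, which makes arrays comparable and can compress small folds of dim genes. No further normalisation was applied. Of 41345 probe sets, 23521 had 1 gene symbol in the platform annotation, 1820 had several and were left out, and 16004 had none or were not listed. Of several probe sets of a gene (1082 genes) the brightest on average was used, which left 22180 genes, of which 21994 had gene IDs in RefSeq. The number of arrays limits the precision.

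The model of each gene had terms for genotype and sex (limma 3.58.1 under R 4.3.3, eBayes). P-values were adjusted by Benjamini-Hochberg over the 22180 genes and called below 0.05. Effects within a sex, their difference and sex effects came from 1 fit of 4 groups. The mice are separate animals, and p-values measure the spread between them. Lists were counted and not tested. The members and lists were chosen with earlier results of these data known. The text names all 10 members, from each pathway list the genes past the threshold (at most 4, by adjusted p) or otherwise the 2 largest folds, from each cell type list the 2 smallest adjusted p, the 2 genes most like each member, and *Vps33b*. *Cish*, *Bcl6* and *Onecut1* were added with their values known. The alternatives changed the model terms, the probe set rule, the filter on dim genes (above the median, or above log2 6 in at least 4 arrays), the scaling, the moderation and the weights of arrays, or left out each mouse. On simulated data with these groups, over 22180 genes, the fit found 55.2% of planted differences of 0.5 (log2), 97% of those of 1 and 100% of those of 2, with 12 false calls among 180. The differences were planted in random genes with independent normal noise and no liver that stood apart. These shares therefore do not hold for genes as variable as *Igfbp1* and *Socs2*. Slide and scan date were not used here. Promoters were taken from RefSeq tables on GRCm38.p6, and no proteins were used.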

Additional observations from a re-analysis of the deposited data

Results flagged for a closer look

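The value of *Igfbp1* in control 1 (10.60) lay far from the other 3 control livers (7.61 to 7.71), with a gap that was 0.967 of the whole range of the group against a critical value of 0.829 in Dixon's test at the 95% level. It was the only one among the 20 groups tested (10 genes in 4 control and 6 knockout livers). Chance alone gives about 1 in 20. The mean of the amino acid and ER stress genes was also highest in this liver (7.77), and the part of either in the other was not tested.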

How the results depend on the processing

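Of 220 repeats of the 10 genotype differences, 197 kept direction and side of the threshold, 4 gained a call, 8 lost it and 11 changed sign, the last for *Igfbp3*, *Igfbp4* and *Igfbp5*, whose differences were near 0. The members called higher (1) were 0 with the replicate number as a block and 2 with array weights, and ran from 0 to 2 with each mouse left out. Those called lower (0) were 1 with array weights and ran from 0 to 1. With array weights the added calls were *Igfbp1* (adjusted p = 0.0364) and *Ghr* (0.035), as without control 1. *Igfbp4* (0.02) was -0.06 under the replicate block, -0.01 with arrays centred on their median and -0.01 with array weights, and in females -0.01 when centred. With each mouse left out *Igfbp3* ran from -0.07 to 0.23, *Igfbp4* from -0.01 to 0.06 and *Igfbp5* from -0.14 to 0.04. In males the ranges were -0.37 to 0.05 for *Igf1*, -0.36 to 0.44 for *Igfals*, -0.36 to 0.03 for *Ghr*, -0.18 to 0.78 for *Socs2*, -1.10 to 1.79 for *Igfbp1*, -0.44 to 0.23 for *Igfbp2* and -0.09 to 0.07 for *Igfbp4*, in females -0.02 to 0.12 for *Igfbp4*. For the difference between sexes they were -0.26 to 0.15 for *Igf1*, -0.32 to 0.85 for *Socs2*, -0.44 to 0.23 for *Igfbp2*, -0.02 to 0.14 for *Igfbp4* and -0.27 to 0.01 for *Igfbp7*. The cause was not tested.

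Over all genes, 690 higher and 252 lower calls became 208 and 49 under the replicate block. Lower calls were 165 with no sex term, 409 and 422 with the 2 filters on dim genes and 499 with array weights. With each mouse left out the counts ran from 233 to 825 and from 47 to 449, lowest without control 2 and highest without control 1. After the mean of each genotype and sex was taken off, same-numbered mice correlated at -0.12 to 0.14 over 4 pairs. In these correlations 1 control matched best the knockout of its own number. With 2 controls of each sex, the deviations of the controls mirror each other, so these correlations cannot decide whether the numbers pair the mice. The replicate block gave *Igfbp7* 0.42 with an adjusted p of 0.132.

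With 4 and 6 livers, changes of 0.5 on the log2 scale are found only in part, and the spread of *Igfbp1* and *Socs2* leaves wide intervals.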

Other observations

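*Bcl6* and *Onecut1*, a repressor and an activator among the GH-regulated transcription factors, varied widely between livers of 1 genotype and are given as values, chosen after they were seen. *Bcl6* was at 9.83, 7.06, 7.55 and 8.45 in control livers 1 to 4 and at 9.72, 7.10, 8.07, 7.01, 7.82 and 7.87 in knockout livers 1 to 6, highest in male 1 of both genotypes (difference -0.29, adjusted p = 0.859 from limma). Whether their shared number pairs these males is not known. *Onecut1* was at 7.08, 10.43, 7.64 and 7.08 in control livers and at 7.09, 8.94, 9.02, 7.55, 6.78 and 7.71 in knockout livers, highest in control 2 and in knockouts 2 and 3, all male (difference -0.21, adjusted p = 0.906 from limma).

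The means of the male-biased genes also differed within a sex. In male knockouts 1, 2 and 3 they were 8.33, 9.11 and 9.62 and in male controls 1 and 2 they were 8.91 and 9.67. Male 1 of either genotype thus had the lowest mean among the males of its genotype. It was also high in *Bcl6* and low in *Igf1*, *Igfals* and *Igfbp4*, which are named here after their values were seen. With only 2 male controls and 3 male knockouts, the same number can be extreme in both by selection alone, so no link between these genes is read from it. In female livers they lay between 7.05 and 7.39.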
